A study of Mus musculus with 20 samples.

Results

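The 34 genes described here are those of glycolysis and of the transcriptional response to low oxygen that were selected by symbol from the 27998 genes of the single-cell tables. They fall into 17 glycolytic enzymes (hexokinase to lactate dehydrogenase), 4 membrane transporters of glucose (Slc2a1, Slc2a3) or of lactate and pyruvate (Slc16a1, Slc16a3), and 13 genes known as targets of hypoxia-inducible factor. Their levels were measured in differentiating mouse embryonic stem cells under combinations of signals, from an undirected and a mesendoderm start, and in 13 bulk libraries.

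Glycolysis splits glucose to pyruvate in the cytosol, and lactate dehydrogenase then interconverts pyruvate and lactate. The subunit encoded by Ldha is usually associated with making lactate and that of Ldhb with using it, and Slc16a3 (MCT4) is known mainly as a lactate exporter. When oxygen is scarce, the prolyl hydroxylases (among them Egln1 and Egln3) no longer mark hypoxia-inducible factor for destruction through Vhl, and the factor raises genes of glycolysis, glucose uptake, pyruvate dehydrogenase inhibition (Pdk1), mitophagy (Bnip3) and vessel growth (Vegfa). Pluripotent stem cells are known for a high glycolytic rate that changes as they leave pluripotency.

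The cells were male 129P2/OlaHsd mouse embryonic stem cells, kept with LIF, GSK3 inhibitor XV and UO126, then cultured without both inhibitors, in serum-free medium and in low-serum differentiation medium, before 24 h of treatment. Cells with the mesendoderm start had first been given Fgf2, Activin A and GSK3 inhibitor XV together with CD 2665 and Dorsomorphin, and control wells had no combinatorial treatment. Each well was marked with transfected barcodelets, short synthetic RNA tags that are read with the transcriptome of each cell, and the wells of an experiment were pooled into 1 library of 10x Chromium 3′ data. The germ layer experiment combined the plus and minus levels of 5 signals in 32 conditions with 1 cell population each: retinoic acid (RA) or the RA receptor antagonist CD 2665, GSK3iXV or IWR1 for Wnt, ActivinA or A8301 for Tgfb, Bmp4 or Dorsomorphin for Bmp, and Fgf2 or the MEK inhibitor UO126 for Fgf. The mesendoderm experiment added Notch and Shh in 384 wells, and the mixed experiment held the 32 combinations from both starts beside untreated control wells, 144 wells in all. The bulk libraries, made with a 3′-end kit, were of cells without transfection, of cells harvested 24 h or 72 h after the tags were transfected, and of flow-sorted populations named Foxa2GFPplus (3 libraries), Foxa2GFPminus (2) and Tdgf1GFPplus (2).

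UMI counts of the cells assigned to a well were summed, so a summed level averages over the cells of a well, and a change in the mixture of cells cannot be told apart from a change within each cell. Of 8421 cells in the germ layer experiment 4350 were assigned, 70 to 230 per population; 300 mesendoderm wells and 142 mixed wells held at least 5 assigned cells and were tested. Levels are CPM (UMI or read counts scaled to a common library size by TMM). The scaling was done separately for each single-cell experiment, the sorted and the unsorted bulk libraries. Changes are log2 plus against minus with the standard error (SE). Below, populations or wells without a signal are those at its minus level, which is not the same as untreated. A gene is called at an adjusted p under 0.05 over all genes tested (edgeR's quasi-likelihood test, Benjamini-Hochberg). Of the 34 genes 31 passed the filter on low counts in the germ layer experiment, 13 in the mesendoderm experiment and 28 in the mixed experiment. Levels of some members are uncertain, since the transcript end of Gapdh matches 106 other genes, that of Gpi1 3, that of Bnip3 2, and those of Pfkp, Eno1 and Ldhb 1 each; on the same strand Slc2a3 overlaps Gm4482, Pkm Gm49759, Pfkm Gm26513, Slc2a1 Mir1957a, and Slc16a1 Gm43581 and Gm43585. Different genes are not ranked by level, because the values are not per transcript length.

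Promoter sequence is shown for 4 members whose values the comparisons turn on, the lactate dehydrogenases and a glucose and a lactate transporter, with the core of the hypoxia response element, ACGTG, in capitals on either strand. Each window runs from 250 bases before to 50 bases after a RefSeq start site of GRCm38 and is printed 5′ to 3′ along the gene's strand. The windows are those of Ldha (first of 2 start sites, chr7:46845554-46845853, plus strand), Ldhb (chr6:142507908-142508207, minus strand), Slc2a1 (chr4:119108495-119108794, plus strand) and Slc16a3 (chr11:120948817-120949116, plus strand).
Ldha: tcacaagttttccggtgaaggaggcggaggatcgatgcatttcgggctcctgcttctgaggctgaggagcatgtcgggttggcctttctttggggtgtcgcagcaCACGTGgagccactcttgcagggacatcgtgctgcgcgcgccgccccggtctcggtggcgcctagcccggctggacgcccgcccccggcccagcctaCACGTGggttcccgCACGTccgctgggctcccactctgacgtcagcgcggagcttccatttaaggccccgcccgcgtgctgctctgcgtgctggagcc
Ldhb: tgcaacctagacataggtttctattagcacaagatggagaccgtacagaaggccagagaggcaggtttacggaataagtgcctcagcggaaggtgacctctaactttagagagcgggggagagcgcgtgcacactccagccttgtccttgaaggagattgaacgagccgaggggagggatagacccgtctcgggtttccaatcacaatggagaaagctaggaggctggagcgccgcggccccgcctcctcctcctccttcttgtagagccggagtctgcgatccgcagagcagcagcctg
Slc2a1: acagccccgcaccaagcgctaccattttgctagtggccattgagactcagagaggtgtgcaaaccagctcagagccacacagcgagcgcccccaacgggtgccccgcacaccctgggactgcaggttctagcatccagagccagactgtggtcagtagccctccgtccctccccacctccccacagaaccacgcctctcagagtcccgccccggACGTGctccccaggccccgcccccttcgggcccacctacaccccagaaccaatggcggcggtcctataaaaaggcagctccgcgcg
Slc16a3: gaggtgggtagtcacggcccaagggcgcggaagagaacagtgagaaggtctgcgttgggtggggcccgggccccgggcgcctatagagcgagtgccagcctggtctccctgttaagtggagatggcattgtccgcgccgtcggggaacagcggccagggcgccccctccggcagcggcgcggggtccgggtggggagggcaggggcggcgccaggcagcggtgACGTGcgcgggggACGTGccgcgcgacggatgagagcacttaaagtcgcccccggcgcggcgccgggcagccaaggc
ACGTG was searched on both strands, so that the palindrome CACGTG counts on each; the windows held 5 matches for Ldha, 0 for Ldhb, 1 for Slc2a1 and 2 for Slc16a3. The window of the second Ldha start site (chr7:46846832-46847131), not printed, held 0. RefSeq windows were found for 31 of the 34 members, and 23 of these 31 genes (74.2%) had a match in at least 1 window, against 21.8% of 27025 genes in the table. Such a match is a run of letters and was not tested as a binding site.

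In the germ layer experiment, RA called 13 of the 31 members tested (3 higher, 10 lower), against 27.7% of all 10614 genes tested (14.1% higher, 13.6% lower). Wnt called 14 (8 higher, 6 lower), with a background of 23.9% (12.1% higher, 11.9% lower). Bmp called 14 (1 higher, 13 lower; background 43.1%), Fgf 7 (6 higher, 1 lower; 7.93%, of which 4.58% higher and 3.35% lower) and Tgfb 3 (7.02%). The median log2 change of the members was -0.19 with Bmp, where that of all genes was 0.00, and lay between -0.06 and 0.02 for the other 4 signals. For Bmp the number called was near the background, but 13 of the 14 called were lower, where 21.5% of all genes were called lower and 21.6% higher. Each comparison set 16 plus against 16 minus populations in an additive model, whose spread includes the interactions of the signals. No germ layer population was untreated, so a change cannot be assigned to the plus or to the minus compound. The plus and minus groups overlapped for every member and signal.

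**Figure D1:**
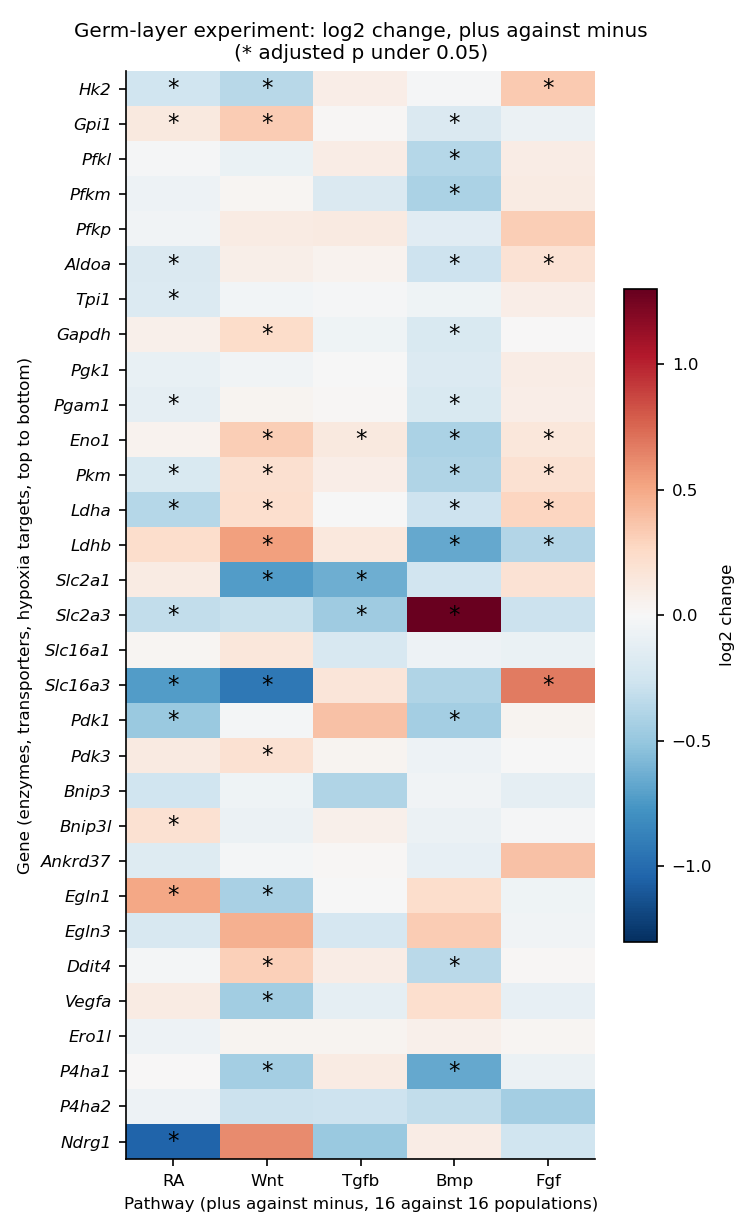
Log2 change of each of the 31 tested members (vertical) with each of the 5 signals (horizontal) in the germ layer experiment, plus against minus, 16 populations each; the colour gives the log2 change and an asterisk marks an adjusted p under 0.05. The Bmp column is mostly lower among the enzymes and has its strongest rise at Slc2a3, at 1.28.

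Glycolytic enzymes were lower with Bmp and, in part, with RA, and several were higher with Wnt or Fgf. With Bmp, 10 of 14 tested enzymes fell and 0 rose. Eno1, the enolase of most tissues, was at 347.9 CPM at lowest, 424.2 at the median and 568.9 at highest with Bmp4, and at 481.9, 571.9 and 753.7 with Dorsomorphin. Its log2 change of -0.41 (SE 0.04, n = 16 against 16, adjusted p = 8.09e-11, edgeR) came with overlapping groups, the plus populations being mostly the lower ones. Pkm, the pyruvate kinase gene, had 386.2, 548.9 and 764.2 CPM with Bmp4 against 618.9, 722.1 and 850.9 (log2 -0.39). Aldoa (aldolase, log2 -0.27), Pgam1 (phosphoglycerate mutase, -0.19), Gapdh (-0.20), Gpi1 (-0.19) and the phosphofructokinases Pfkl (-0.37) and Pfkm (-0.42) also fell. Summed over the enzymes, 0.359% ± 0.041 of UMIs with Bmp4 and 0.439% ± 0.026 with Dorsomorphin (SD, n = 16 each) came from these genes.

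The change with Wnt went the other way for 6 enzymes, and Hk2 was the single enzyme called lower. Eno1 was at 415.2 to 753.7 CPM (median 572.2) with GSK3iXV and at 347.9 to 568.1 (median 490.6) with IWR1, a log2 change of 0.32 (SE 0.04, adjusted p = 4.51e-08, edgeR). Gpi1, which makes fructose 6-phosphate, rose by 0.33, Gapdh by 0.24 and Pkm by 0.20. Hk2, the hexokinase that phosphorylates glucose at entry, had a median of 82.2 CPM against 110.2 and fell by 0.36 (adjusted p = 0.000315, edgeR). With RA, 6 enzymes fell and 1 rose: Ldha, Pkm (log2 -0.20), Aldoa (-0.18), Tpi1, the triosephosphate isomerase (-0.17), Pgam1 (-0.12) and Hk2 (-0.26), against Gpi1 (0.13). Fgf raised 5, namely Ldha, Pkm (0.20), Aldoa (0.19), Hk2 (0.34) and Eno1 (0.14), and Eno1 was the single enzyme called with Tgfb (0.12, adjusted p = 0.0375, edgeR).

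Mean UMIs per cell of a population differed between the levels. Their medians were 15642 for RA plus and 17296 for minus, and 15962 and 17526 for Tgfb. For Bmp they were 17299 and 15787, and for Fgf 16926 and 15739. With this depth as a covariate, the calls of Hk2, Pgam1 and Gpi1 with RA, Gpi1 and Pfkm with Bmp, Hk2 with Fgf and Eno1 with Tgfb were lost. Eno1 with Tgfb also lost its call without the population of fewest cells (adjusted p = 0.0529, edgeR).

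The lactate dehydrogenase subunits moved in opposite directions with Fgf and in the same direction with Wnt and Bmp. With RA Ldha was called and Ldhb was not. Ldha was at 383.2 to 632.2 CPM (median 514.8) with RA and at 397.9 to 878.6 (median 665.2) with CD 2665, a log2 change of -0.37 (SE 0.05, adjusted p = 5.51e-07, edgeR). It was lower with Bmp (log2 -0.27) and higher with Wnt (0.22) and Fgf (0.28). Under Fgf2 its median was 624.5 CPM (417.5 to 878.6), against 516.1 (383.2 to 726.3) with UO126. Ldhb fell with Fgf by 0.38 (SE 0.09, adjusted p = 0.00856, edgeR; lost with depth as a covariate, adjusted p = 0.0902). It rose with Wnt from a median of 205 CPM (128 to 297.9) to 300 (137.1 to 622), by 0.53 (SE 0.09, adjusted p = 4.45e-05, edgeR). With Bmp4 Ldhb was at 128 to 324.1 CPM (median 183.8) against 169.4 to 622 (median 296.9), and fell by 0.67 (SE 0.09, adjusted p = 4.29e-07, edgeR).

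The effect of Wnt on Ldhb depended on Bmp. Over all levels of the other signals, mean Ldhb was 406.8 CPM ± 115.4 with Wnt plus and Bmp minus and 210.1 ± 59.8 with both plus. It was 231.3 with both minus and 177.3 with Wnt minus and Bmp plus (SD where given, n = 8 each). The difference of the Wnt effect between Bmp plus and minus was -0.56 on the log2 scale (SE 0.10, adjusted p = 0.001, edgeR). Within Wnt plus and Bmp minus, the 4 populations without Fgf2 had 416.2 to 622 CPM and lay above the 28 others, at 128 to 348; this group was chosen after its values were seen and has no test. Ldha made up 54.4% ± 5.0 of the Ldha and Ldhb UMIs in these 4 populations and 48.0% to 82.8% over all 32, with a mean of 74.6% ± 5.3 in Fgf plus and 65.4% ± 8.9 in Fgf minus (SD, n = 16 each).

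**Figure D2:**
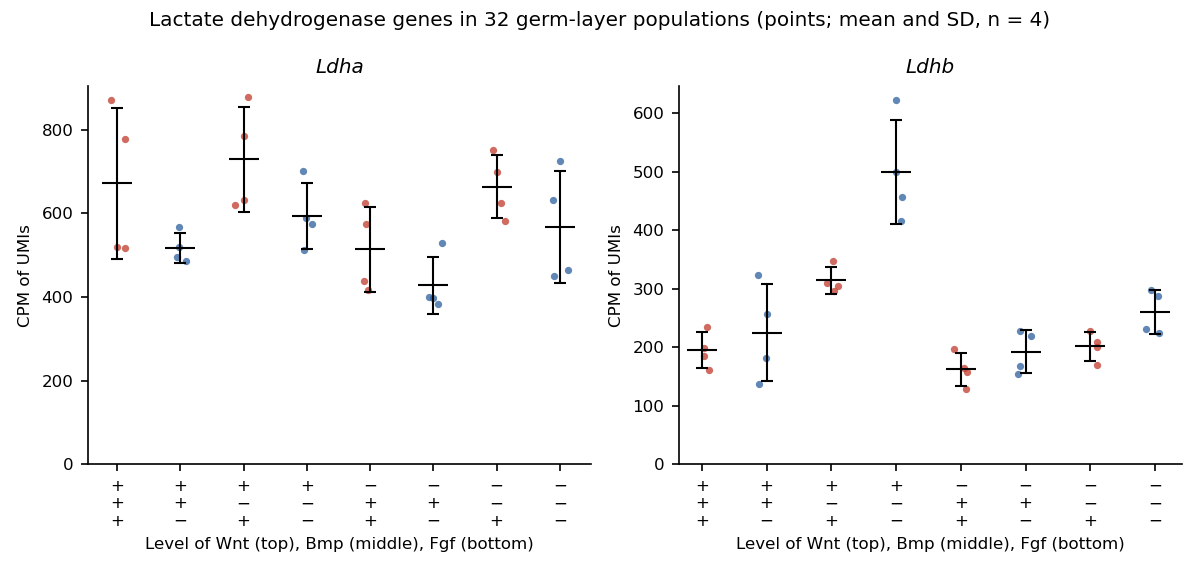
Ldha and Ldhb levels in CPM (vertical) for each combination of Wnt, Bmp and Fgf level (horizontal) in the germ layer experiment; points are populations (n = 4 a group) and bars the mean with its SD. Ldhb at Wnt plus, Bmp minus and Fgf minus lies at 416.2 to 622 CPM, above the 28 other populations.

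Both glucose transporters had a wide range over the 32 populations, Slc2a3 216.6 to 2088 CPM and Slc2a1 87.97 to 813.6. Slc2a3 (GLUT3), a glucose carrier known for its high affinity, was the single member that rose with Bmp. It was at 486.8 to 2088 CPM (median 1015) with Bmp4 and at 216.6 to 558.4 (median 410.5) with Dorsomorphin, a log2 change of 1.28 (SE 0.12, adjusted p = 3.57e-10, edgeR). It fell with Tgfb, from 307.7 to 2088 CPM (median 688.9) in minus to 216.6 to 1367 (median 503.8) in plus (log2 -0.46, SE 0.12, adjusted p = 0.0146, edgeR). A fall of 0.32 with RA passed the threshold narrowly (adjusted p = 0.0486, edgeR) and was lost with DESeq2 (0.0791), without the filter or with depth as a covariate. Slc2a1 (GLUT1), the carrier of basal glucose uptake, was at 87.97 to 487.2 CPM (median 178.1) with Wnt plus and at 165.5 to 813.6 (median 312.9) with minus, a log2 change of -0.72 (SE 0.19, adjusted p = 0.00455, edgeR). With ActivinA it had a median of 197.1 CPM against 301.6 with A8301 (log2 -0.63, SE 0.19, adjusted p = 0.0353, edgeR). With depth as a covariate both Tgfb calls were lost, at an adjusted p of 0.156 for Slc2a1 and 0.108 for Slc2a3 (edgeR).

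Neither RA nor Bmp alone was called for Slc2a1, but the pair had the smallest adjusted p of the member products examined. The pairs examined were RA with Wnt, RA with Bmp, Wnt with Bmp and Tgfb with Bmp. Mean Slc2a1 was 420.2 CPM ± 122.4 with RA and without Bmp, and 362.4 ± 223.3 with Bmp and without RA. It was 190.8 ± 80.0 with both and 197.4 ± 62.6 with neither (SD, n = 8 each). Mean Slc2a1 was thus lower with Bmp than without it in RA plus and higher with Bmp in RA minus, a product of -1.94 on the log2 scale (SE 0.12, adjusted p = 2.3e-13, edgeR). Slc2a3 was at 1299 CPM ± 533.4 with Bmp and without RA and at 811.4 ± 220.7 with both. It was at 398.2 ± 70.6 with RA and without Bmp and at 409.7 ± 109.1 with neither (product -0.59, SE 0.10, adjusted p = 0.000271, edgeR). Bmp also gave a higher Slc2a3 without Tgfb (1330 CPM, against 420.5 with neither) than with it (780.8, against 387.4), a product of -0.65 (SE 0.10, adjusted p = 0.000144, edgeR).

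**Figure D3:**
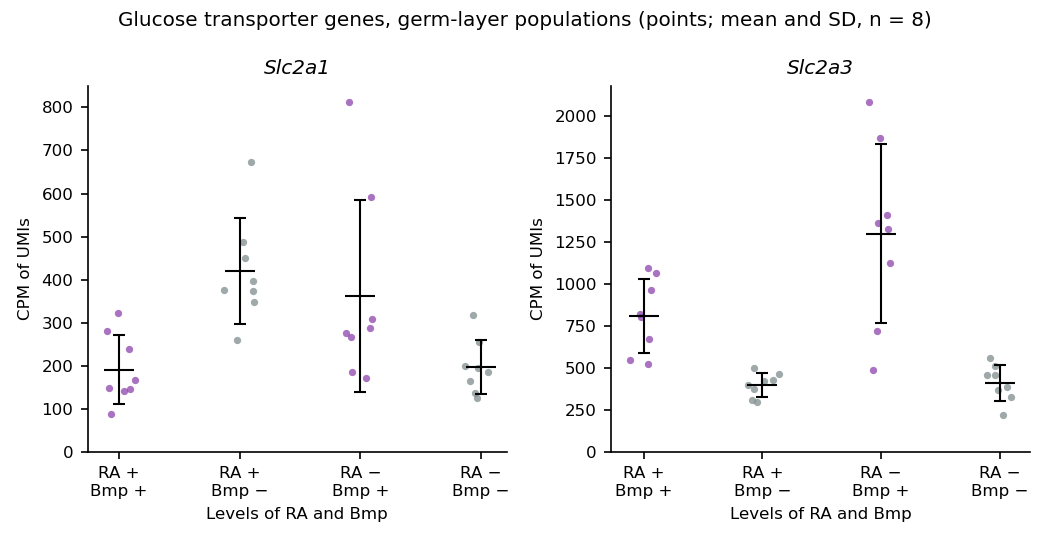
Slc2a1 and Slc2a3 levels in CPM (vertical) for each combination of RA and Bmp level (horizontal) in the germ layer experiment; points are populations (n = 8 a group) and bars the mean with its SD. Slc2a1 is highest with exactly 1 of both signals, at means of 420.2 and 362.4 CPM, and Slc2a3 is highest with Bmp and without RA, at 1299 CPM.

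Across the pairwise products examined, RA with Bmp called 6 of 33 tested members (background 3.01% of 11410 genes) and Wnt with Bmp 10 of 33 (3.87%). Tgfb with Bmp called 2 of 33 (3.01%) and RA with Wnt 0 of 33 (3.63%). The model also held the other pairs of signals, whose products were not examined. For RA with Wnt, 7 of 33 members and 1875 of 11410 genes had an unadjusted p under 0.05 with edgeR. Once the population of fewest cells was left out, 1 member was called. Besides the transporters, RA with Bmp called Eno1 (-0.25), Ldhb (0.49), Slc16a1 (0.62) and P4ha2 (1.21). Without the population of fewest cells the product of Wnt and Bmp kept 7 of its 10 calls and lost Pdk1, Aldoa and Egln3; the product of Tgfb and Bmp lost P4ha1 (0.91). With DESeq2, 4 members were called for Wnt with Bmp.

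Slc16a3, the lactate exporter, was lower with Wnt and RA and higher with Fgf. It was at 5.176 to 51.6 CPM (median 19.2) with GSK3iXV and 19.2 to 120.8 (median 33.4) with IWR1, a log2 change of -0.93 (SE 0.16, adjusted p = 5.63e-05, edgeR). With RA the median was 21.1 CPM (11.7 to 50.0) against 30.0 (5.176 to 120.8), a log2 change of -0.73 (SE 0.16, adjusted p = 0.000808, edgeR). Fgf2 populations had 17.5 to 120.8 CPM (median 29.7) and UO126 populations 5.176 to 67.1 (median 20.4), a log2 change of 0.68 (SE 0.16, adjusted p = 0.00819, edgeR). With depth as a covariate the RA call (adjusted p = 0.0556) and the Fgf call (0.071) were lost. Wnt lowered it mainly at Bmp minus. Over all levels of the other signals, the mean was 18.7 CPM with Wnt plus and Bmp minus and 59.3 with both minus. It was 30.5 with Wnt minus and Bmp plus and 24.7 with both plus (n = 8 each). The product was 1.20 (SE 0.25, adjusted p = 0.00359, edgeR). Slc16a1 (MCT1), which carries lactate and pyruvate both ways, was at 27.9 to 62.4 CPM over the 32 populations and was not called with any single signal.

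In the germ layer experiment the 13 hypoxia targets moved in both directions with RA and Wnt. RA called 4 (30.8%, against 27.7% of all genes), Wnt 5 (38.5%, against 23.9%) and Bmp 3 (23.1%, against 43.1%). With RA, Egln1, an oxygen-sensing prolyl hydroxylase, had 7.075 to 25.6 CPM (median 15.0) against 6.59 to 13.9 (median 11.2), a log2 change of 0.51 (SE 0.13, adjusted p = 0.0041, edgeR). Bnip3l, a mitophagy receptor, rose by 0.20 and Pdk1, which inhibits pyruvate dehydrogenase, fell by 0.48. Ndrg1, a growth-arrest and stress gene, was at 0.797 to 6.48 CPM (median 3.19) with RA and 0.920 to 34.2 (median 5.97) with CD 2665, and fell by 1.04 (SE 0.29, adjusted p = 0.00575, edgeR). Its 34.2 CPM came from the population of fewest cells (70), and without it the log2 change was -0.83 (adjusted p = 0.00825, edgeR).

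With Wnt, Ddit4, a stress-induced inhibitor of mTORC1, rose by 0.31, as did Pdk3 by 0.20, while Egln1 fell by 0.42. Vegfa, the vascular growth factor (log2 -0.45, adjusted p = 0.0465), and P4ha1, a collagen prolyl hydroxylase (-0.44, adjusted p = 0.049; both edgeR), fell too; both calls were lost with DESeq2 and without the filter. Bmp lowered Ddit4 (-0.35), P4ha1 (-0.67) and Pdk1 (-0.44), of which the last 2 lost their call with depth as a covariate. With Tgfb and with Fgf, 0 of the 13 targets were called, against 7.02% and 7.93% of all genes.

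Among other genes of the same processes, the pentose phosphate pathway, which branches from glycolysis, had 5 of 7 tested genes higher with Wnt and 0 lower (12.1% of all genes were higher), among them Tkt (0.25), Taldo1 (0.16) and Pgd (0.19). The regulators of hypoxia-inducible factor had 4 of 12 lower with Wnt and 0 higher, where 11.9% of all genes were lower (Cul2 -0.25, Cited2 -0.26, Hif1a -0.15). With Tgfb and with Fgf 1 of 12 was called, Epas1, which encodes the factor's second alpha subunit (-0.95 and -1.01). Of 22 other hypoxia-induced genes, Tgfb called 5, all higher, against 7.02% of all genes called (Bhlhe40 1.04, Fam162a 0.32, Plin2 0.45), and Fgf 4, all higher, against 7.93% (Pgf 0.85, Bhlhe40 0.61). The other 3 signals called shares of these 22 genes near the background. Bmp called 12 (4 higher, 8 lower) against 43.1% (Mif -0.35, Fam162a -0.34, Bhlhe40 0.96), RA 7 (3 higher, 4 lower) against 27.7% (Hmox1 -1.25, Mif 0.25, Anxa2 -0.91), and Wnt 6 (1 higher, 5 lower) against 23.9% (Tfrc 0.42, Pfkfb3 -0.98, Anxa2 -0.47). Of 10 genes for entry of pyruvate into mitochondria, RA called 1 higher and 3 lower, against 27.7% called (Pdhb -0.54, Pdha1 -0.19, Mpc1 -0.35), Bmp 3 higher and 3 lower, against 43.1%, and Tgfb raised Mpc1 (0.69). Of 9 other glycolysis genes, Bmp raised 2 (Eno3 0.46, Pfkfb1 0.40) and called 0 lower, where 21.6% of all genes were higher.

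Markers of cell type moved with the same signals. With Bmp4, 6 of 7 markers of surface ectoderm and trophoblast were higher (summed level 1132 to 2164 CPM against 395.4 to 905.2). All 5 tested neural markers were lower (7.422 to 19.3 against 31.6 to 169). RA lowered 6 of 8 markers of general pluripotency (332.4 to 932.1 CPM against 512.6 to 1663) and 6 of 8 tested of primitive streak and mesendoderm (45.7 to 367.1 against 83.9 to 1101). Streak markers were higher with Wnt (4 of 8 tested, 62.4 to 1101 CPM against 45.7 to 343.1) and with Tgfb (5 of 8, 61.4 to 1101 against 45.7 to 641), and Fgf raised 4 of 8 general pluripotency markers (451.3 to 1663 against 332.4 to 1486). Of all genes tested, Bmp called 21.6% higher and 21.5% lower, RA 13.6% lower, Wnt 12.1% higher and Fgf 4.58% higher. Tgfb called 7.02% in either direction. No marker of these lists was at 0 UMIs in the experiment. Their part in the changes of the glycolytic genes was not tested.

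The mesendoderm experiment, with 5 to 29 cells a well (median 8), tested 13 members among 2328 genes. RA called 6 (1 higher, 5 lower), with a background of 21.9% (11.6% higher, 10.3% lower). Wnt called 7 (1 higher, 6 lower; background 39.6%, with 19.9% higher and 19.6% lower) and Bmp 6 (5 higher, 1 lower; 29.3%, with 13.4% higher and 15.9% lower). Fgf called 6 (5 higher, 1 lower; 9.28%, with 3.78% higher and 5.5% lower) and Tgfb 2 (10.1%). For Notch (1.16%) and Shh (0.043%) 0 members were called by edgeR, and DESeq2 called 0. An unadjusted p under 0.05 (edgeR) was seen for 2 members each, and for 188 and 167 of the 2328 genes. Ldhb with Bmp had the smallest adjusted p: 157 plus wells had 11.8 to 439.8 CPM (median 197.8) and 143 minus wells 58.1 to 1982 (median 341.5), a log2 change of -1.04 (SE 0.07, adjusted p = 6.12e-33, edgeR). Wnt raised Ldhb by 0.57 (adjusted p = 2.5e-12, edgeR). Ldha made up 73.8% ± 10.5 of both subunits' UMIs in Bmp plus wells and 55.8% ± 16.3 in minus wells (SD).

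Bmp raised 5 glycolytic enzymes in these wells, namely Tpi1 (0.38), Ldha (0.29), Aldoa (0.21), Pgam1 (0.12) and Pkm (0.12). All but Tpi1 had fallen with Bmp in the germ layer experiment, and the difference between the experiments was not tested. With RA, Aldoa had the smallest adjusted p, at 127.3 to 597.4 CPM (median 309.8) with plus and 190.5 to 719.9 (median 413.4) with minus (log2 -0.41, SE 0.04, adjusted p = 2.22e-18, edgeR), and Ldha fell by 0.29. Slc2a1 was lower with Wnt (log2 -0.71) and with Tgfb, where its median was 84.0 CPM (0 to 754.9) in 108 plus wells and 136.8 (0 to 604.9) in 192 minus wells (-0.76, SE 0.10, adjusted p = 5.26e-11, edgeR). Well sets 2 and 3 held Tgfb minus wells only, and on sets 0 and 1 alone Slc2a1 and Slc2a3 (-0.39) were still called lower. Fgf raised Ldha (0.36), Pkm (0.19), Aldoa (0.18), Pgam1 (0.12) and Eno1 (0.14) and lowered Ldhb (-0.24). Restricted to wells of at least 10 cells, the calls fell to 4 for Wnt, 2 for Bmp (Ldha and Ldhb) and 1 for Fgf (Ldha). In this experiment 3 of 3 tested surface ectoderm and trophoblast markers were higher with Bmp (164.8 to 4067 CPM against 82.7 to 2052). Of all genes 13.4% were higher. With RA 3 of 3 streak markers were lower (34.9 to 778.6 against 0 to 1556), where 10.3% of all genes were lower. The part of these markers was not tested.

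In the mixed experiment the control wells, which had no combinatorial treatment, compared the starts themselves. Slc16a3 was at 5.184 to 14 CPM (median 10.4) in the 8 mesendoderm-start wells and at 28.6 to 52.3 (median 38.6) in the 8 undirected wells. The groups did not overlap, and the log2 difference was -1.83 (SE 0.24, adjusted p = 7.29e-10, edgeR). Slc2a3 was at 391 to 602.3 CPM (median 491.6) in the mesendoderm-start wells and at 214.9 to 327.1 (median 272.9) in the undirected wells, again without overlap (log2 0.83, SE 0.19, adjusted p = 0.000939, edgeR). Ddit4 (0.85) and Gpi1 (0.35) were also higher and Tpi1 (-0.36) lower after the mesendoderm start, so that 5 of 28 tested members were called against 8.57% of 8791 genes (4.3% higher, 4.27% lower). In the same control wells 6 of 10 markers of naive pluripotency were higher after the mesendoderm start (2487 to 3642 CPM against 1325 to 2293), as were 4 of 7 of surface ectoderm and trophoblast (221.5 to 478.7 against 104.5 to 192.8), and their part was not tested. Over the treated wells the starts differed for 2 members, Pgam1 (-0.11) and P4ha1 (0.44), against 25.6% of all genes. Without the filter 9 members were called there, and Pgam1 was not (adjusted p = 0.194, edgeR).

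Against their own controls, the treated undirected wells had lower Slc16a3 (0 to 57.1 CPM, median 11.02; log2 -1.72, SE 0.19, adjusted p = 2.51e-13, edgeR) and 7 other members called, 8 of 28 in all (2 higher, 6 lower) against 19.3% of genes (8.3% higher, 11% lower). These included Slc2a1 (-0.62), Pkm (-0.25) and Ldha (-0.25), which were lower, and Gpi1 (0.33), which was higher. After the mesendoderm start 4 members were lower than in control wells (background 15.5%): Pdk1 (log2 -0.67), Pfkp (-0.50), Slc2a3 (-0.40) and Ddit4 (-0.45). With DESeq2 the Slc2a3 and Ddit4 calls were lost. In the same comparisons 7 of 8 general pluripotency markers were lower in treated wells of each start (640.1 to 2549 CPM against 1716 to 2105 in undirected wells, 530.2 to 1771 against 1552 to 1855 after the mesendoderm start), and their part was not tested.

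From the undirected start RA called 15 of 28 members (4 higher, 11 lower), with a background of 34.3% (16.9% higher, 17.5% lower). Wnt called 13 (8 higher, 5 lower; background 36.1%, with 16.7% higher and 19.4% lower) and Fgf 7 (5 higher, 2 lower; 13.3%, with 6.85% higher and 6.42% lower). Bmp called 4 (7.81%) and Tgfb 1 (4.14%). From the mesendoderm start RA called 15 (5 higher, 10 lower; background 30%, with 14.4% higher and 15.6% lower) and Wnt 18 (9 higher, 9 lower; 41.1%, with 19.9% higher and 21.2% lower). Bmp called 5 (1 higher, 4 lower; 10.7%, with 5.36% each way), Fgf 10 (8 higher, 2 lower; 13.6%, with 7.12% higher and 6.44% lower) and Tgfb 4 (6.96%). Ldha was at 160.1 to 380 CPM (median 227.3) with RA and 203.1 to 637.1 (median 365.9) without it from the undirected start (log2 -0.80, SE 0.06, n = 30 against 32, adjusted p = 1.48e-22, edgeR). From the mesendoderm start it was at 162.5 to 412 CPM (median 279.4) against 220 to 485.4 (median 326.5), a smaller fall of 0.29 (SE 0.06, adjusted p = 8.38e-06, edgeR). The RA effect on Ldha differed between starts by 0.51 (SE 0.09, adjusted p = 8.85e-06, edgeR), and Pkm differed in the same direction, from -0.55 to -0.28 (difference 0.27, adjusted p = 0.0091, edgeR).

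Slc16a3 responded to Wnt and RA from the undirected start and less after the mesendoderm start. From the undirected start Wnt plus wells had 0 to 20.9 CPM (median 4.995) and minus wells 4.596 to 57.1 (median 21.9), a log2 change of -2.06 (SE 0.21, adjusted p = 2.06e-16, edgeR). After the mesendoderm start they had 0 to 24.5 (median 7.16) and 0 to 22.2 (median 10.2), a change of -0.37 (SE 0.16) that was not called (adjusted p = 0.0594, edgeR). The difference between starts was 1.69 (SE 0.28, adjusted p = 2.17e-06, edgeR) for Wnt and 1.21 (SE 0.24, adjusted p = 0.000194, edgeR) for RA, whose own changes were -1.33 and -0.12. Primitive streak markers moved with both signals. RA lowered 6 of 6 tested from the undirected start (summed level 11.04 to 161.9 CPM against 19.2 to 713.7) and 4 of 6 after the mesendoderm start (22.6 to 285.9 against 26.0 to 748.3). Of all genes, RA called 17.5% lower from the undirected and 15.6% from the mesendoderm start. Wnt raised 5 of 6 streak markers from each start, where 16.7% and 19.9% of all genes were higher. The part of these markers in the changes of the members was not tested.

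Slc2a3 was the member whose response differed between starts for the most signals. With Bmp it was at 101.1 to 858.2 CPM (median 321.1) against 130.8 to 422 (median 292.4) from the undirected start, a rise of 0.33 (SE 0.11, adjusted p = 0.0441, edgeR) that was lost with DESeq2 (0.0501), with depth as a covariate or with wells of at least 10 cells. From the mesendoderm start it was at 183.3 to 709.8 (median 299.4) against 149 to 1191 (median 377.8), a fall of 0.42 (SE 0.10, adjusted p = 0.000941, edgeR). The difference of -0.75 (SE 0.15, adjusted p = 0.00907, edgeR) was 1 of the 17 among 8791 genes called for Bmp by start, a background of 0.193%. Fgf lowered Slc2a3 from the undirected start (-0.33, median 302.3 CPM against 320.4) and raised it from the mesendoderm start (0.38, median 381.7 against 328.7), a difference of 0.705 (SE 0.15, adjusted p = 0.00208, edgeR; background 1.47%). Its RA (-0.55) and Wnt (-0.60) effects differed between starts as well. RA by start called 4 members in all (background 5.68%) and Wnt by start 5 (7.77%), which included Ldha (0.36), Tpi1 (0.375) and Pdk1 (-0.52). Tgfb by start called 0 (background 0%), with 2 members and 450 of 8791 genes at an unadjusted p under 0.05 by edgeR.

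**Figure D4:**
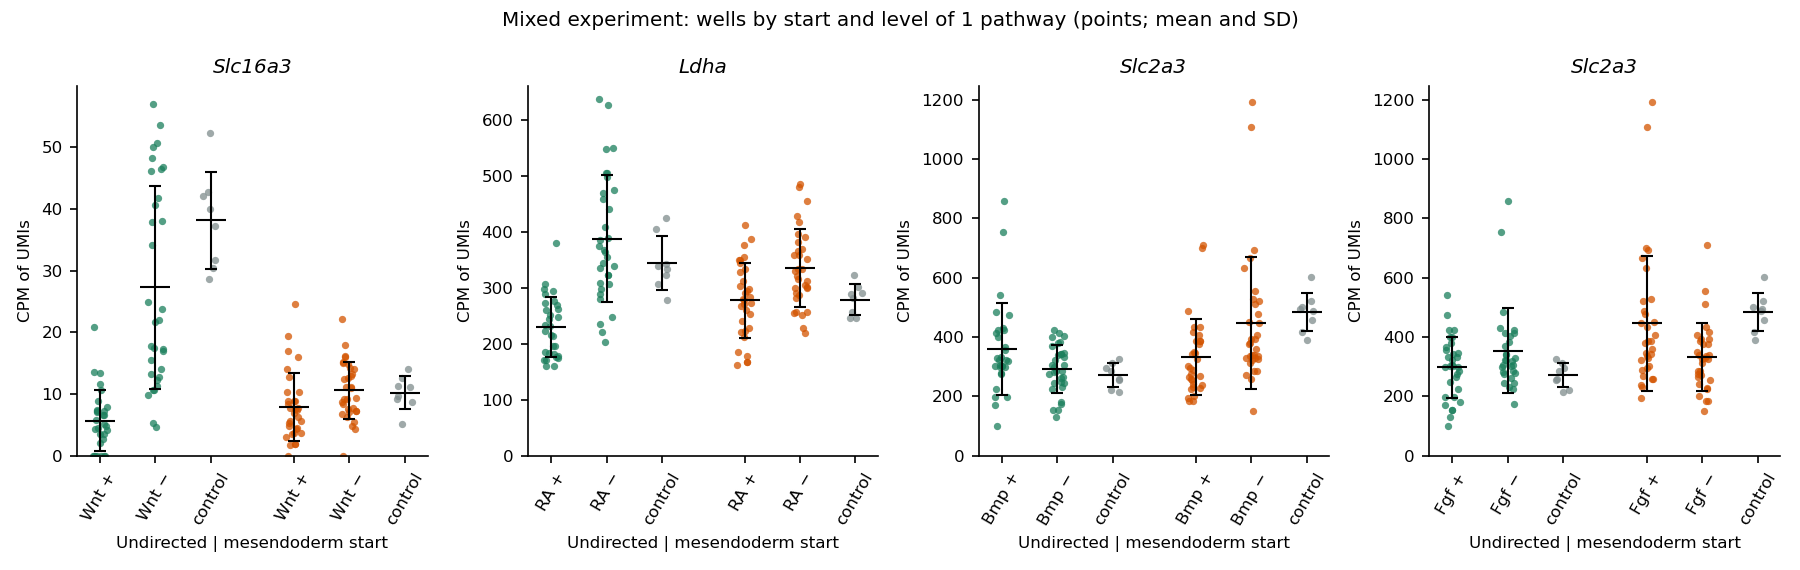
Levels in CPM (vertical) of Slc16a3 by Wnt, Ldha by RA, Slc2a3 by Bmp and Slc2a3 by Fgf in wells of the mixed experiment, for each start and with its control wells (horizontal); points are wells (8 control wells and 30 to 32 treated wells a group) and bars the mean with its SD. Control wells of Slc16a3 and Slc2a3 do not overlap between the starts, and Slc16a3 with Wnt minus reaches 57.1 CPM from the undirected start and 22.2 after the mesendoderm start.

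Some patterns of the germ layer experiment were seen in the mixed wells and others were not. Ldhb rose with Wnt (0.67 and 0.51 by start) and fell with Bmp (-0.49 and -0.72) and Fgf (-0.40 and -0.47). Wells with Wnt plus, Bmp minus and Fgf minus had a mean Ldhb of 452.1 CPM ± 139.3 from the undirected start (n = 8) against 212.0 ± 81.5 in the other 54, and 515.5 ± 150.8 (n = 8) against 202.8 ± 63.0 in the other 56 after the mesendoderm start, with overlap in both. Slc2a1 was lower with Wnt (-1.18 and -1.13) and Tgfb (-0.79 and -0.72). By RA and Bmp, its mean from the undirected start was 146.6 CPM ± 97.9 with RA and without Bmp and 71.1 ± 31.6 with both. It was 87.0 ± 54.2 with Bmp and without RA and 112.5 ± 88.1 with neither (SD, n = 14 with both and 16 otherwise). After the mesendoderm start it was 135.2 CPM ± 75.7, 71.3 ± 29.5, 130.6 ± 85.6 and 103.7 ± 70.3 in the same order (SD, n = 16 each), and the product was not tested in the mixed experiment. Pdk1 fell with Bmp, from a median of 56.6 CPM (15.1 to 101.4) to 24.7 (10.5 to 51.2) after the mesendoderm start (log2 -1.08, SE 0.10, adjusted p = 7.07e-17, edgeR) and by 0.79 from the undirected start. Gapdh rose with Wnt by 0.56 and 0.47, and 5 of 7 pentose phosphate genes rose with Wnt from each start, Tkt by 0.46 and 0.55. Of all genes 16.7% and 19.9% were higher with Wnt.

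For each signal 4 comparisons can be set side by side for the 13 members tested in all of them: germ layer, mesendoderm, and both starts of the mixed experiment, which share a library. RA lowered Ldha, Pkm, Aldoa, Tpi1 and Pgam1 in 4 of 4, Ldha with log2 changes of -0.80 to -0.29. Wnt raised Ldhb in 4 of 4 (0.51 to 0.67) and lowered Hk2 and Slc2a1 (-1.18 to -0.71) in 4 of 4. Tgfb lowered Slc2a1 in 4 of 4 (-0.79 to -0.63) and Bmp lowered Ldhb in 4 of 4 (-1.04 to -0.49). Fgf raised Ldha (0.28 to 0.48) and Pkm and lowered Ldhb (-0.47 to -0.24) in 4 of 4. Called in both directions were Aldoa, Tpi1 and Ldha with Wnt, Aldoa, Pgam1, Pkm, Ldha and Slc2a3 (-0.42 to 1.28) with Bmp, and Slc2a3 with Fgf.

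Several of these calls were lost under an alternative, most of them in the shallow mesendoderm wells. With wells of at least 10 cells, that experiment lost Pgam1 (adjusted p = 0.317, edgeR) and Pkm (0.35) with RA, Hk2 (0.0789) and Ldha (0.199) with Wnt, Aldoa, Pgam1 and Pkm with Bmp, and Pkm (0.413) and Ldhb (0.0709) with Fgf. Without the filter it lost Pgam1 with RA (adjusted p = 0.11, edgeR), Hk2 (0.0954) and Ldha (0.112) with Wnt and Ldhb with Fgf (0.246). On well sets 0 and 1 alone it lost Pgam1 with RA (adjusted p = 0.205, edgeR), Ldhb with Fgf (0.145) and Pkm with Bmp (0.108), and with depth as a covariate Hk2 with Wnt (0.056). In the germ layer experiment depth as a covariate ended the calls of Pgam1 with RA, Slc2a1 with Tgfb and Ldhb with Fgf. In the mixed experiment Aldoa with Wnt from the undirected start was lost without the filter (0.105). The Ldhb calls with Wnt and Bmp, the Slc2a1 calls with Wnt, and the Ldha calls with RA and Fgf were kept in all 4 comparisons under each of these alternatives.

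In the bulk libraries, fewer cells of a type and less RNA per cell cannot be told apart, and nothing in the labels says that replicates came from separate cultures, so p-values cover the spread between libraries only. Barcodelet transfection called 0 of 34 members with edgeR after 24 h (1 at an unadjusted p under 0.05, 0 with DESeq2, background 0.0344%) and 0 after 72 h (2 unadjusted, 0 with DESeq2, 0.0258%). Of all 11631 genes tested, 305 and 626 had an unadjusted p under 0.05 (edgeR). Over these 6 unsorted libraries Ldha was at 904.3 to 1298 CPM, Ldhb at 616.1 to 855 and Slc16a3 at 162.7 to 224.

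Between sorted Foxa2GFPplus and Tdgf1GFPplus cells, 4 of 17 glycolytic enzymes, 2 of 4 transporters and 6 of 13 hypoxia targets were higher in Foxa2GFPplus. Of 34 members 12 were thus higher and 0 lower, against 10.2% of 13654 genes called (4.8% higher, 5.43% lower), and the members' median log2 change was 1.15, that of all genes 0.08. Slc16a3 had 174.0, 237.6 and 173.9 CPM in the Foxa2GFPplus replicates and 28.9 and 33.7 in those of Tdgf1GFPplus (log2 2.64, SE 0.30, adjusted p = 0.000696, edgeR). Vegfa was at 31.0, 65.6 and 45.3 CPM against 7.728 and 13.6 (log2 2.16, adjusted p = 0.0105, edgeR). The groups did not overlap for any of the 12. These were picked by their calls on the same libraries, and overlap was not counted over all genes, so this adds no support. For Egln1 they nearly met, at 16.7 CPM in Foxa2GFPplus replicate 1 and 16.1 in Tdgf1GFPplus replicate 2. Ldha was at 528.2, 792.0 and 559.7 CPM against 295.9 and 253.0 (log2 1.19, adjusted p = 0.0328, edgeR). The other called members were the enzymes Pfkl (1.48), Tpi1 (1.53) and Aldoc (2.43), the transporter Slc16a1 (1.44), and the hypoxia targets P4ha1 (2.40), Ddit4 (1.65), Bnip3 (1.70), Ero1l (1.46) and Egln1 (2.05). Of the 22 members not called, Slc2a3 had 224.2, 289.2 and 195.6 CPM against 278.4 and 322.0, with overlapping groups.

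**Figure D5:**
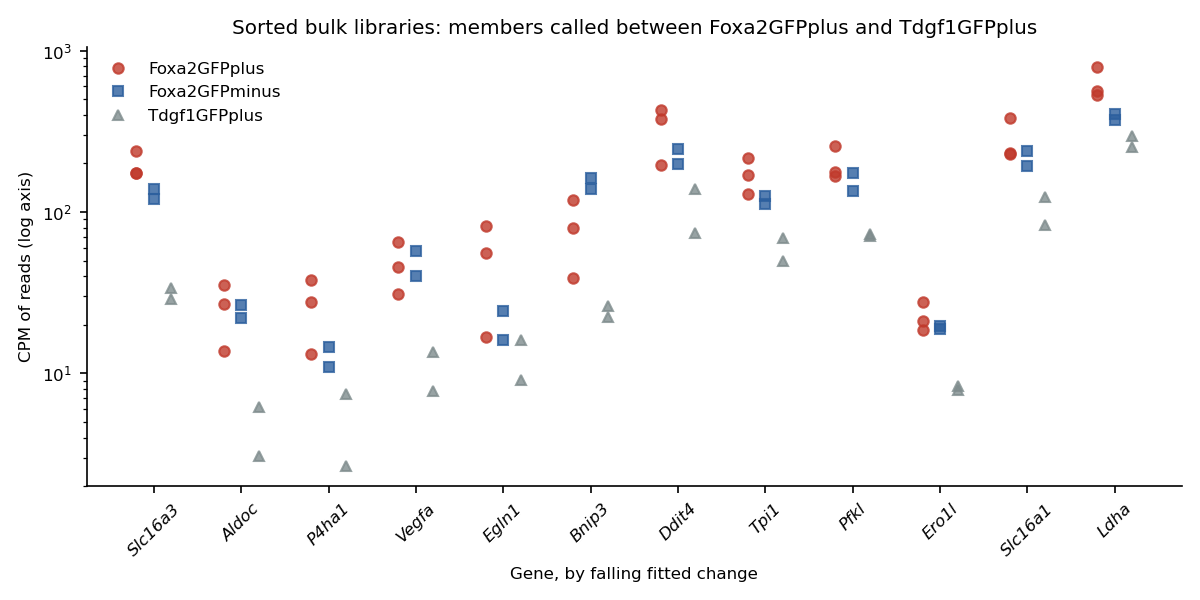
Levels in CPM (vertical, log axis) of the 12 members called between Foxa2GFPplus and Tdgf1GFPplus, in each sorted library (points; 3 Foxa2GFPplus, 2 Foxa2GFPminus and 2 Tdgf1GFPplus); no mean or error is drawn. Slc16a3 separates the Tdgf1GFPplus libraries, at 28.9 and 33.7 CPM, from the other 5.

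These calls rested on few libraries. Leaving out either Foxa2GFPminus library, which only shares the estimate of spread, ended calls that included Bnip3, Ddit4 and Egln1. Without either Tdgf1GFPplus library, Slc16a3 was the single member called (adjusted p = 0.0237 and 0.0197, edgeR), without Foxa2GFPplus replicate 3 there were 6 and without replicate 1 there were 21. Gm42418, a gene that overlaps ribosomal RNA, held 15.7% to 42.6% of a sorted library's reads, against 2.63% to 10.6% without sorting, and the 12 calls were kept when it and the ribosomal protein genes were left out. In Foxa2GFPplus 9 of 10 naive pluripotency markers were lower (147 to 165.1 CPM against 892.5 to 1229), where 5.43% of all genes were lower. Of the streak markers 5 of 10 were higher (986 to 1153 against 236.7 to 275.6), where 4.8% of all genes were higher. Foxa2, for which the sorted population is named, was higher by 3.99, which follows from the sort and is no separate finding. The part of these markers was not tested. Of 27 other hypoxia-induced genes 5 were higher and 2 lower (Loxl2 3.43, Bhlhe41 5.97, Hmox1 -1.57), against 4.8% higher and 5.43% lower of all genes. Of 13 regulators of hypoxia-inducible factor 0 were called with edgeR, against 10.2% of all genes. The counts of these lists were not repeated with left-out libraries.

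Between Foxa2GFPplus and Foxa2GFPminus 1 member was called (background 2.39%): Pfkp, the platelet-type phosphofructokinase, at 53.6, 43.3 and 30.4 CPM against 132.9 and 176.8 (log2 -1.87, SE 0.32, adjusted p = 0.0138, edgeR). The groups did not overlap, and the call was lost without either Foxa2GFPminus library (adjusted p = 0.0573 and 0.218, edgeR). Foxa2GFPminus libraries had 121.0 and 138.9 CPM of Slc16a3 and 370.3 and 403.7 of Ldha. Between Tdgf1GFPplus and Foxa2GFPminus 0 members were called with edgeR (background 0%) and 5 with DESeq2, and the members' median log2 change was -1.02. An unadjusted p under 0.05 (edgeR) was seen for 19 of 34 members and 1321 of 13654 genes.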

How the data were processed

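Single-cell tables of 3 experiments hold UMI counts per cell and the bulk tables hold read counts per gene, both as deposited by the authors. Cell Ranger 1.3.1, STAR 2.5.2b, HTSeq 0.9.1 and the build mm10 are named per the submitters' processing notes; their roles, strand use and the handling of reads with several matches are not given in the sources used here. Only cells that the deposited assignment tables pass were used. Doublets were not called again. The libraries shared 151 (germ layer and mesendoderm), 64 (germ layer and mixed) and 111 (mesendoderm and mixed) cell barcodes, where independent draws would share 146, 67.9 and 103.

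UMI counts were summed per well or population (at least 5 cells), filtered on low counts and scaled by TMM. They were tested over all genes with edgeR 4.0.16 (quasi-likelihood F-test, R 4.3.3) and Benjamini-Hochberg adjustment, with each signal coded 0.5 and -0.5. A product coefficient is the difference of a signal's log2 effect between the levels of the other; "by start" is the mesendoderm-start effect less the undirected one. The SE is the log2 change over the root of F. Each experiment is 1 pooled library, and its wells are the replicates. Totals were 991630 to 3816595 UMIs per population in the germ layer experiment, 27701 to 332644 per mesendoderm well, 101140 to 2119355 per mixed well, and 2899646 to 14874469 reads per bulk library; these limit counting error only.

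Members and lists were chosen with earlier results of these data known. Named were all members, with values for those of smallest adjusted p (up to 6 each way) and for a described role, and up to 3 genes of each other list with the smallest adjusted p. Alternatives were DESeq2 1.42.0, no filter, at least 10 cells, depth as a covariate, products in the model, replicate blocks, left-out libraries and a fit of all 13 libraries. Depth is the log2 of the mean UMIs per cell of a population or well. Leaving out the smallest population, well sets 0 and 1 alone and a crossed block were chosen after seeing the data. The code was tested on simulated data. Promoters came from RefSeq (GRCm38.p6), overlaps and transcript ends from GENCODE. Foxa2GFPplus replicate 2 was not analysed here.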

Additional observations from a re-analysis of the deposited data

Results flagged for a closer look

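The effect of a signal differed between the starts of the mixed experiment for 11 pairs of gene and signal, by the test of the difference itself (mesendoderm-start log2 change less undirected-start log2 change, edgeR over 8791 genes). For RA these were Slc2a3 (-0.55), Ldha (0.51), Pkm (0.27) and Slc16a3 (1.21). For Wnt they were Pdk1 (-0.52), Slc2a3 (-0.60), Tpi1 (0.375), Ldha (0.36) and Slc16a3 (1.69). Slc2a3 also differed for Bmp (-0.75) and Fgf (0.705). With depth as a covariate the difference of Pdk1 lost its call (adjusted p = 0.0598, edgeR).

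Single control wells stood apart from the other 7 of their start for 3 members. Tpi1 was at 187.4 CPM in 1 undirected well, with the nearest at 154.7. Slc16a1 was at 14.9 CPM in 1 mesendoderm-start well (nearest 27.2), and Bnip3 at 7.775 in 1 such well (nearest 15.5). In all 48 groups were checked, and chance alone picks out about 1 in 20.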

How the results depend on the processing

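Over 186 settings of the counts of members called, 159 stayed within 1.5 times the count and 27 moved beyond it outside the left-out libraries; no called member reversed its direction. In the germ layer experiment the products in the model gave 6 members for Tgfb (3 without them) and 12 for Fgf (7), and depth as a covariate gave 0 and 4. RA with Wnt gave 1 (0) without the smallest population. Wnt with Bmp gave 4 with DESeq2 and 6 with depth (10), and Tgfb with Bmp 1 with DESeq2 (2). In the mesendoderm experiment, wells of at least 10 cells gave 4 for Wnt (7), 2 for Bmp (6) and 1 for Fgf (6); no filter gave 11 for Bmp, and well sets 0 and 1 alone 3 for Fgf. In the mixed experiment no filter gave 2 each for Tgfb from the undirected start, Bmp by start and Fgf by start (1 each) and 9 for the start of treated wells (2), and DESeq2 gave 2 for treated against control wells after the mesendoderm start (4). The cause of these moves was not tested.

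In bulk, Foxa2GFPplus against Foxa2GFPminus gave 2 with DESeq2, 3 without the filter and 2 in the fit of all 13 libraries (1). Foxa2GFPplus against Tdgf1GFPplus gave 20 in the fit of all 13 libraries (12), and Tdgf1GFPplus against Foxa2GFPminus 5 with DESeq2, 5 without the filter and 5 in that fit (0). Leaving out 1 library at a time gave 0 to 11, 1 to 21 and 0 to 10 in these 3 comparisons and 0 to 0 after transfection; a lone library is then assumed to vary like the others. Whether replicate numbers pair the bulk libraries could not be decided. Deviations of same-numbered libraries correlated at 0.144, -0.247 and -0.127 in the transfection groups and at 0.0368, -0.0915 and 0.127 in the sorted groups. In groups of 2 libraries the deviations mirror each other, so swapped numbers give the same value with the opposite sign. With the replicate block Tdgf1GFPplus against Foxa2GFPminus gave 11 members and both transfection comparisons 0. The block gave Foxa2GFPplus replicates 3 and 4 a term each, since no other group holds these numbers. Both Foxa2GFPplus comparisons then rest on replicate 1 alone, so their counts are left out. The crossed block, chosen after seeing the data, gave 0 and 0 after transfection. A block on well replicates kept all 27 member calls of the mesendoderm experiment. Of single member calls, DESeq2 kept 214 of 231, no filter 215 of 231, depth 192 of 218 and at least 10 cells 133 of 149. Depth limits the mesendoderm wells most, where 21 members fell under the filter.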

Other observations

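The extremes of several members came from few treatments, all chosen here after their values were seen and without a test. The highest Slc2a3 levels of the germ layer experiment, 2088, 1870 and 1412 CPM, were in populations with Bmp4 and without RA or ActivinA. In the mixed experiment the highest undirected wells, 858.2 and 754.3 CPM, were both wells with Bmp as the single plus signal (next well 540.4). After the mesendoderm start the highest Slc2a3, 1191 and 1107 CPM, was in both wells with Fgf as the single plus signal. The next well, at 709.8 CPM, had Bmp as its single plus signal.

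The germ layer population with Wnt as its single plus signal, the smallest with 70 cells, had the highest Gpi1 (161.5 CPM), P4ha1 (26.9, next 26.8), P4ha2 (79.7, next 73.2) and Ndrg1 (34.2, next 12.2). Adding Bmp to it gave the highest Slc2a3 (2088 CPM), Bnip3 (22.3) and Egln3 (21.0).

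In bulk, Bnip3, a mitophagy receptor, was at 716.6 to 1062 CPM in the 6 unsorted libraries and at 22.2 to 163.3 in the 7 sorted ones. Ldhb was at 616.1 to 855 CPM unsorted and at 89.7 to 284.0 sorted. The sorted and unsorted sets were scaled separately, so their CPM are not on a common scale, and they were not tested against each other. The share of ribosomal protein genes among the reads was 20.3% to 27.4% without sorting and 4.52% to 9.86% after it.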
